A study of Homo sapiens with 5 samples.

Results

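The 10 genes described here encode the route by which interleukin 6 (IL-6) acts on a cell, from receptor to target gene. They were chosen by name, and all 10 were found by their symbols among the 27189 genes of the tables: the receptor chains IL6R, IL6ST, OSMR and LIFR, the kinases JAK1, JAK2 and TYK2, the transcription factor STAT3, and the target genes SOCS3 and BCL3. HT1080, a human fibrosarcoma line, was grown for 24 h in a gel of 2 mg per ml type I collagen, and RNA was sequenced from 5 conditions. Cells at low density (LD, 10 cells per cubic mm) received no cytokine, recombinant IL-6, recombinant IL-8, or both in a ratio of 5 to 2 (RM). Cells at high density (HD, 50 cells per cubic mm) received no added cytokine. Each condition was 1 library, so no difference between 2 conditions has a replicate check, and the comparisons below are between libraries. The cells of a library were pooled from the gel, all came from 1 cell line, and the doses of the single cytokines are not given in the labels.

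IL-6 binds its receptor chain IL-6R, and the pair then recruits gp130, the product of IL6ST, which carries the signal into the cell. The Janus kinases JAK1, JAK2 and TYK2 sit on gp130 and phosphorylate STAT3, which enters the nucleus and switches on target genes. Among these are SOCS3, which binds gp130 and shuts the kinases off, and BCL3, a nuclear member of the IκB family. OSMR and LIFR pair with gp130 to bind oncostatin M and leukaemia inhibitory factor. IL-8 acts through a different kind of receptor, the G protein-coupled chemokine receptors CXCR1 and CXCR2.

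STAT proteins bind short palindromes of the form TTC, a spacer, GAA, and such a match with a spacer of 2 to 4 bases lies in a promoter window of 5 of the 10 genes and of 20.4% of all 27305 genes with a window. The window was the 250 bases before the annotated start in RefSeq's GRCh38.p14, of which the 10 genes have 18. By window, the match was in 6 of the 18 and in 17.1% of all 35116. Spacers of 2 and 4 bases were added after a first search, and a spacer of 3 bases alone gave 1 of the 10 genes against 8.09% of all genes. The matches in the target gene SOCS3, in STAT3 itself, in JAK1, in IL6R and in the 2 windows of LIFR are shown because these are the members whose upstream sequence holds the letters. Each is written 5′ to 3′ on the strand of the gene, with the match in capitals.
SOCS3, chr17:78361123-78361150, minus strand, 215 bases before the start: gaaaactgctTTCCGGAAattctctcct
STAT3, chr17:42388556-42388583, minus strand, 131 bases before the start: gagctggcctTTCATGAAttatgcatga
JAK1, chr1:64966757-64966784, minus strand, 225 bases before the start: agtttctagaTTCTAGAAtctagaggac
IL6R, chr1:154405093-154405112, plus strand, 248 bases before the start: cgTTCACGAAaccaaaaatc
LIFR, chr5:38557631-38557659, minus strand, 182 bases before the start: gctttggagtTTCATCGAAaggtctttaa
LIFR, chr5:38595552-38595580, minus strand, 165 bases before the start: ccattactagTTCCTTGAAccacaatcca
The motif TTCNNGAA was in 4 of the 18 windows and in 6.62% of all 35116 promoter windows, TTCNNNGAA in 2 of 18 and in 6.57%, and TTCNNNNGAA in 0 of 18 and in 5.38%. The motifs read the same on both strands and do not overlap in these windows. A match describes letters and is not evidence of binding. For IL6ST, OSMR, JAK2, TYK2 and BCL3 it can only be said that these letters are not in these windows.

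The libraries held 5096134 to 7118545 reads at low density and 926376 at HD. RNA5-8S5, a ribosomal RNA, took 76.88% to 79.59% of the reads at low density and 51.46% at HD, which left 1100967 to 1645539 and 449661 reads on all other genes. The 10 genes together drew 446 to 866 reads in the low-density libraries and 153 in HD. All 8 mesenchymal markers, vimentin among them, had reads in every library, whereas the epithelial markers EPCAM and KRT5 were at 0 in the 4 low-density libraries, although 1 label calls the source epithelial. Of the other epithelial markers KRT19 had 6 to 132 reads in these 4. The HD library stood apart. It had reads on 240 of 386 olfactory receptor genes against 14 to 37 in the others, on 6 of 6 blood and immune markers against 1 or 2, and ribosomal protein genes held 1.805% of its reads outside RNA5-8S5 against 7.638% to 9.02%.

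Levels are given in TPM (transcripts per 1000000, a measure per length, rescaled here to that sum in each library) with reads beside them. Intervals are 95% exact Poisson intervals, which cover counting error only, since the reads of an amplified library are not independent molecules. In bulk RNA, fewer cells that express a gene and less of its RNA per cell cannot be told apart. In LD the order from the highest level down was STAT3, TYK2, JAK1, IL6ST, OSMR, SOCS3, IL6R, BCL3, with JAK2 and LIFR equal and lowest. STAT3, TYK2 and JAK1 had intervals that did not overlap, and so did SOCS3 and IL6R, while JAK1 with IL6ST, IL6ST with OSMR, OSMR with SOCS3 and IL6R with BCL3 overlapped. STAT3 was also the highest of the 10 in IL-6 and RM, TYK2 was the highest in IL-8, and IL6R was the highest in HD.

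**Figure D1:**
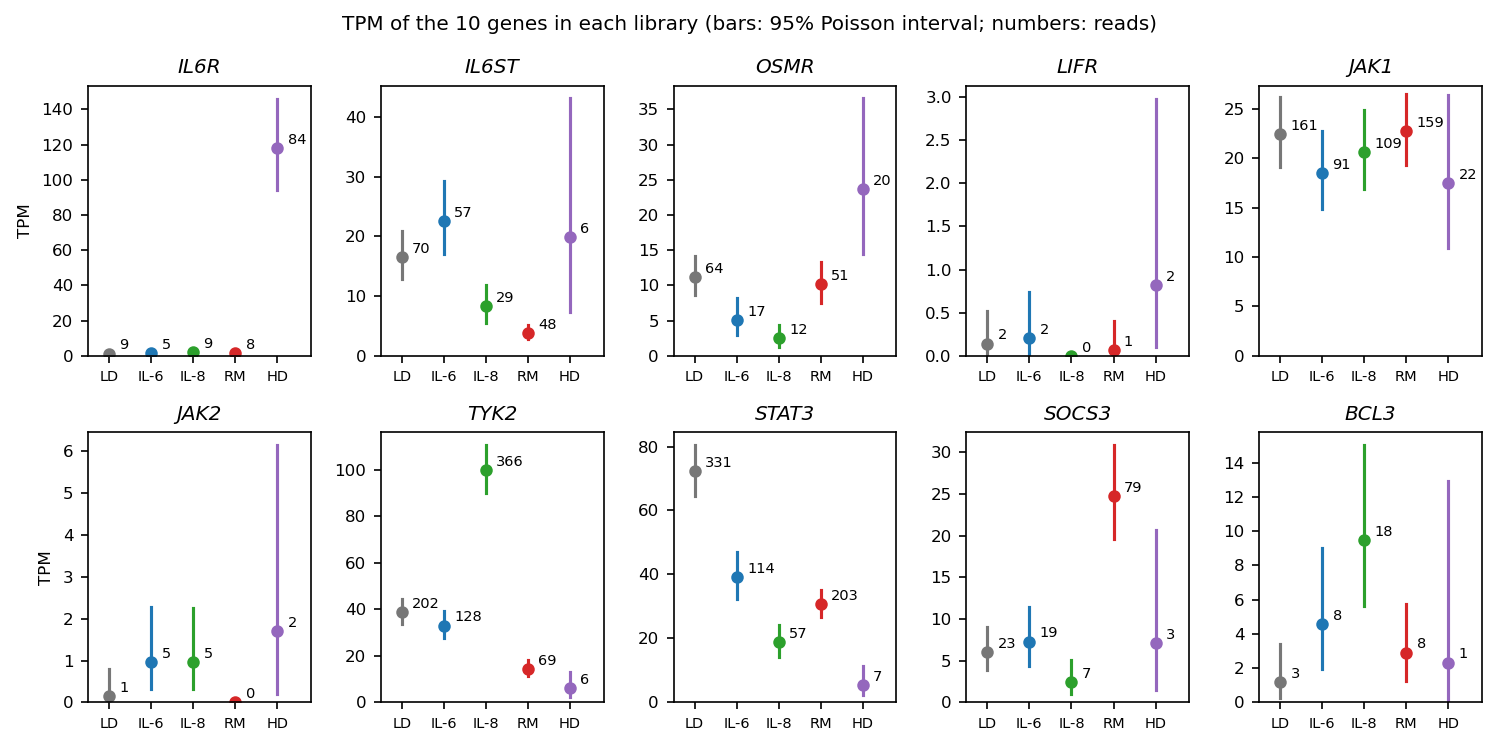
Level of each of the 10 genes in the 5 libraries, in TPM on a linear axis of its own for each gene, with 1 point a library, bars for the 95% exact Poisson interval and the read count beside each point. IL6R is at 1.32 to 1.99 TPM in the 4 low-density libraries and at 118 TPM in HD, STAT3 is highest in LD, TYK2 and BCL3 in IL-8, and SOCS3 in RM.

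SOCS3, the feedback inhibitor, was highest where both cytokines were present. The RM library had 79 reads and 24.8 TPM, next to 7.29 TPM with IL-6 alone (19 reads), 7.07 at high density (3 reads), 6.05 in LD (23 reads) and 2.47 with IL-8 alone (7 reads). The interval in RM, 19.6 to 30.9 TPM, lay above those of LD, IL-6 and IL-8 and overlapped that of HD, which spans 1.46 to 20.7. Scaled to reads outside RNA5-8S5, RM carried 3.94 times the SOCS3 reads of LD (95% interval 2.45 to 6.57), 3.19 times those of IL-6 (1.92 to 5.58) and 8.82 times those of IL-8 (4.09 to 22.6). On the log2(TPM + 1) scale RM was 1.87 above LD, and 8.52% of the 21163 genes that reached 1 TPM in any library differed as far in either direction. The gap ranged from 1.43 to 2.56 over the other pseudocounts and scalings. With IL-6 alone the SOCS3 reads were 1.24 times those of LD, with an interval of 0.636 to 2.37 that included no difference.

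BCL3, an IκB-family regulator of transcription, was read thinly and showed another pattern. It was highest with IL-8 alone at 9.49 TPM (18 reads), followed by 4.57 with IL-6 alone (8 reads), 2.91 in RM (8 reads), 2.32 at high density (1 read) and 1.18 in LD (3 reads). IL-8 was the only library whose read ratio to LD had an interval off 1, at 8.81 (2.57 to 46.7). The ratio was 3.99 (0.957 to 23.3) in IL-6 and 3.06 (0.734 to 17.9) in RM. The interval of the IL-8 level lay above that of LD and overlapped those of the other 3 libraries. Compared directly, the read ratio of RM to IL-8 was 0.347 (0.131 to 0.839). The rest of the order among the 4 was not resolved at this depth.

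STAT3 was highest in LD and lower in each of the other 4 libraries. Its level was 72.3 TPM in LD (331 reads), 39.3 with IL-6 alone (114 reads), 30.7 in RM (203 reads), 18.8 with IL-8 alone (57 reads) and 5.52 at high density (7 reads), and the LD interval of 64.7 to 80.5 overlapped none of the others. The read ratio to LD was 0.704 (0.588 to 0.840) for RM, 0.515 (0.412 to 0.639) for IL-6 alone, 0.253 (0.188 to 0.336) for IL-8 alone and 0.0774 (0.0309 to 0.161) for high density. In HD, ribosomal protein genes also held a smaller share of the reads outside RNA5-8S5, 1.805% against 7.693% in LD. How far the HD ratio of STAT3 reflects such a wider drop was not tested. The sign of the STAT3 difference from LD was the same under every scaling tried. The size of the RM gap was not: it was 1.21 lower on the log2(TPM + 1) scale and 0.50 lower in reads per 1000000 outside RNA5-8S5, since each TPM of STAT3 stood for 1.92 times the library's median reads per TPM in RM and 1.22 times in LD.

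Among the kinases, TYK2 differed most between libraries and JAK1 least. TYK2 was at 99.7 TPM with IL-8 alone (366 reads), 38.7 in LD (202 reads), 33.0 with IL-6 alone (128 reads), 14.4 in RM (69 reads) and 6.02 at high density (6 reads). The IL-8 library lay above the other 4 and the RM library below the other 3 at low density, with no overlap of intervals. The TYK2 reads in IL-8 were 2.66 times those of LD (2.24 to 3.18), while those in RM were 0.392 times (0.294 to 0.517), and IL-8 and RM differed by 2.71 on the log2 scale although both had received IL-8. JAK1, the kinase gp130 depends on most, was at 22.7 TPM in RM (159 reads), 22.5 in LD (161 reads), 20.6 with IL-8 alone (109 reads), 18.5 with IL-6 alone (91 reads) and 17.5 at high density (22 reads). No low-density library had a JAK1 read ratio to LD whose interval excluded 1, and the ratio in HD was 0.500 (0.305 to 0.784). JAK2 had 5 reads with either cytokine alone, 2 at high density, 1 in LD and 0 in RM, and stayed at or below 1.70 TPM. Against a floor of 3 reads RM was 2.17-fold below IL-6 and 2.13-fold below IL-8. The intervals of the read ratios allowed gaps as small as 1.19-fold and 1.17-fold. Differences from LD were not detectable at this depth.

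The receptor chains did not move together. IL6R, the chain that binds IL-6, was at 118 TPM at high density (84 reads), and at 1.99 with IL-8 alone (9 reads), 1.43 with IL-6 alone (5 reads), 1.39 in RM (8 reads) and 1.32 in LD (9 reads). The 4 low-density libraries overlapped, and HD lay far above them, with 34.2 times the reads of LD (17.2 to 77.3). The difference of 5.68 on the log2(TPM + 1) scale was between 4.28 and 6.38 under the other pseudocounts and scalings. In that comparison 3.5% of all genes differed as far, and the median over all genes was itself 1.87 higher in HD. In the same library PTPRC, which marks blood cells, was at 100.5 TPM (36 reads) against 0 in LD, and the 6 blood and immune markers summed to 289.5 TPM against 1.12 to 4.27 in the low-density libraries. Of genes from other tissues, GFAP was at 41.6 TPM (18 reads) in HD against 0 in LD, while ALB was at 0 in both. The part of either group in the IL6R value was not tested.

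For IL6ST, which encodes gp130, reads and TPM gave different pictures. LD had 70 reads (16.6 TPM), the IL-6 library 57 (22.5 TPM), RM 48 (3.84 TPM), the IL-8 library 29 (8.31 TPM) and HD 6 (19.8 TPM). RM was thus the lowest library by TPM, 1.86 below LD on the log2 scale, while its read ratio to LD was 0.787 with an interval of 0.533 to 1.15 that included 1. In HD the TPM was slightly above LD and the read ratio was 0.314 (0.111 to 0.718). Each TPM of IL6ST stood for 3.63 times the library's median reads per TPM in RM, for 0.981 to 1.29 times in the other low-density libraries and for 0.423 times in HD. A shift of at least 2-fold in this factor between RM and LD was seen in 1.31% of the 5347 genes with at least 20 reads in both libraries, and against LD in 0.698% of such genes with IL-6 alone, 1.21% with IL-8 alone and 7.33% at high density. TPM divides reads by the effective length of the transcripts they were assigned to, and GENCODE 29 lists 9 protein-coding IL6ST transcripts of 168 to 9057 bases. Whether isoform use or its estimation differed was not tested.

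**Figure D2:**
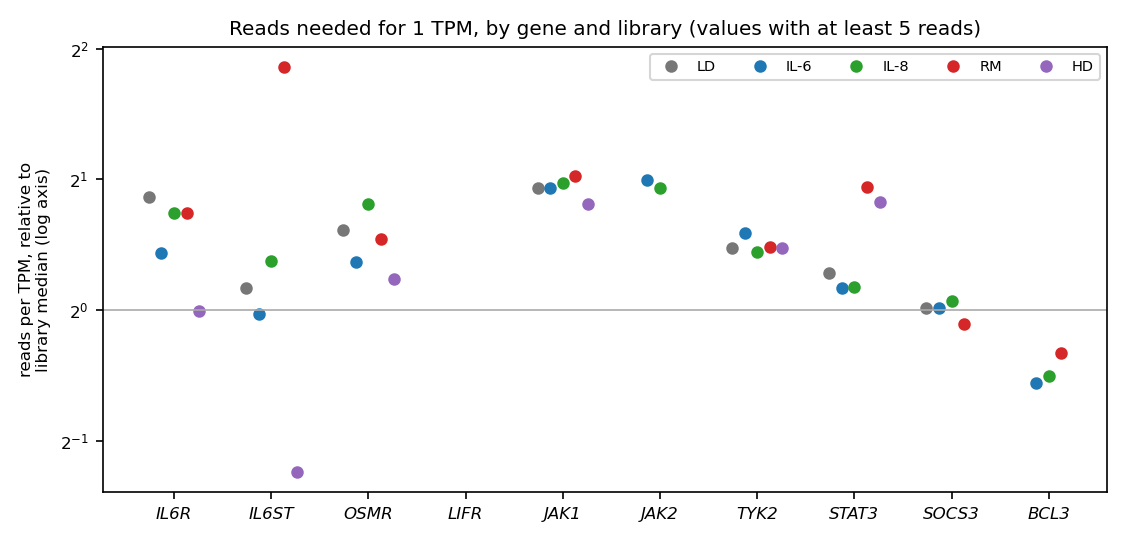
Reads per TPM of each gene relative to the median gene of the same library, on a log axis, with 1 point a library where the gene had at least 5 reads. IL6ST stands at 3.63 in RM against 0.981 to 1.29 in the other low-density libraries, and STAT3 at 1.92 in RM against 1.22 in LD.

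OSMR, the oncostatin M chain that pairs with gp130, was at 23.7 TPM at high density (20 reads), 11.2 in LD (64 reads), 10.2 in RM (51 reads), 5.11 with IL-6 alone (17 reads) and 2.54 with IL-8 alone (12 reads). Both single cytokines gave fewer reads than LD, with ratios of 0.397 (0.218 to 0.686) in IL-6 and 0.275 (0.135 to 0.515) in IL-8, whereas RM was at 0.914 (0.620 to 1.34). Its TPM in HD was 1.02 above LD on the log2 scale, but the read ratio was 1.14 (0.656 to 1.92). LIFR was at or near the floor, with 2 reads each in LD, HD and the IL-6 library, 1 in RM and 0 with IL-8 alone, so no fold is given. The chain that binds leukaemia inhibitory factor was hardly seen at this depth.

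Counts of members show how far the 10 genes moved against the rest of the transcriptome. LIFR did not reach 1 TPM in any library and was left out, and JAK2 was counted only because of its value in HD. Past 1 unit of log2(TPM + 1), IL-6 against LD had 1 of the 9 genes higher and 0 lower (all genes: 9.84% higher, 7.47% lower), and the gene was BCL3. IL-8 had 2 higher, TYK2 and BCL3, and 3 lower, OSMR, STAT3 and SOCS3 (7.99% and 16.4%). RM had 1 higher, SOCS3, and 3 lower, IL6ST, TYK2 and STAT3 (6.44% and 20.4%). HD had 3 higher, IL6R, OSMR and JAK2, and 2 lower, TYK2 and STAT3 (61.9% and 17.9%). JAK2 in HD rested on 2 reads against 1. Where only members with at least 10 reads in both libraries were kept, 0 of 6 passed in IL-6 (all genes: 13.3%), 3 of 5 in IL-8 (27%), 4 of 6 in RM (34.4%) and 1 of 2 in HD (69.2%).

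By the second rule, a 95% interval of the read ratio that excludes 1, IL-6 had 0 higher and 2 lower, STAT3 and OSMR (all genes: 11.4% and 9.42%). IL-8 had 2 higher and 3 lower, with IL6ST in place of SOCS3 among the lower (10.3% and 17.1%). RM had 1 higher and 2 lower, without IL6ST (9.26% and 22.2%). HD had 1 higher, IL6R, and 4 lower, IL6ST, JAK1, TYK2 and STAT3 (42.7% and 19.9%). STAT3 was lower than LD by this rule in all 4 comparisons, which share the LD library. The median difference over the 9 genes was 0.25 in HD, where that of all genes was 1.87. It was 0.07 for IL-6 alone and −0.12 for both IL-8 alone and RM, where that of all genes was 0. The genes tested include those that, like JAK2, reached 1 TPM only in HD. HD had reads on 20113 genes, against 13469 to 15080 in the low-density libraries. How far such genes set the HD shares and median of all genes was not tested, so no lag of the members can be read from them.

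**Figure D3:**
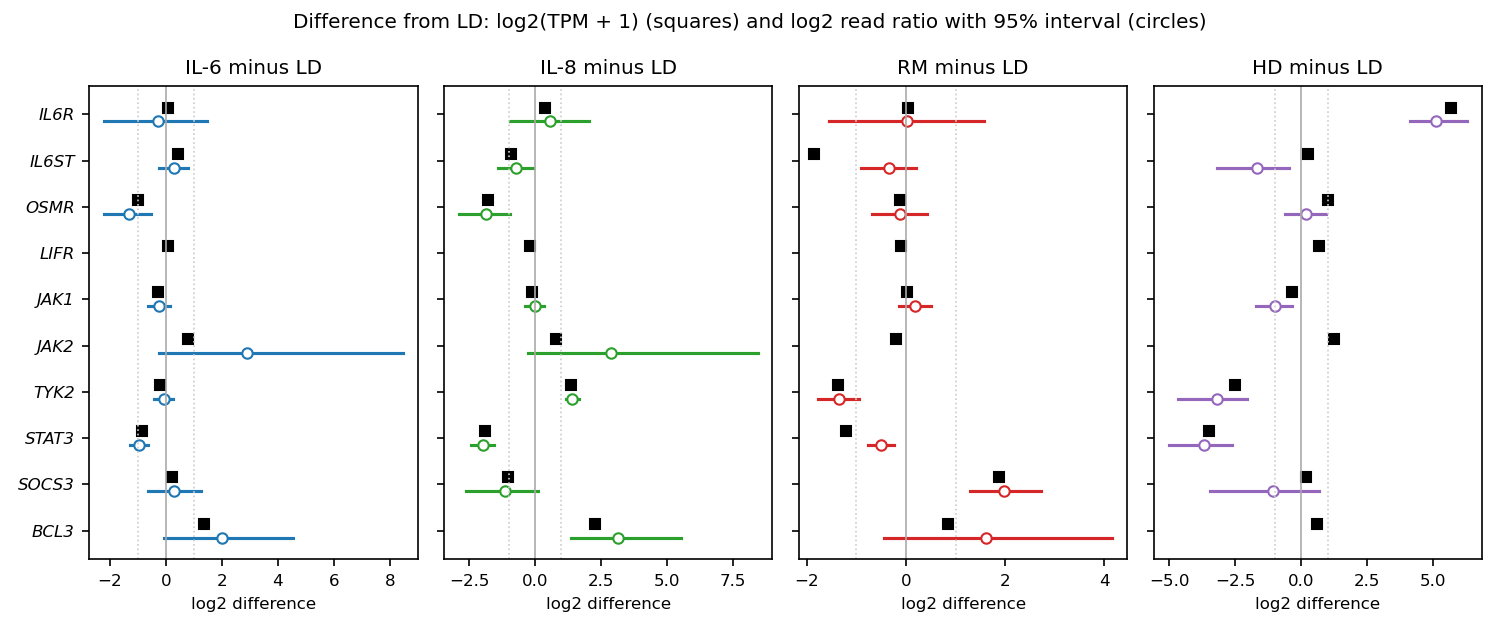
Difference of each gene from LD in 4 panels, 1 for each other library: black squares are differences of log2(TPM + 1), and open circles with bars are log2 read ratios with 95% exact conditional intervals, drawn where neither library had 0 reads and 1 of them had more than 3. SOCS3 in RM (1.87) and IL6R in HD (5.68) lie to the right by both measures, and for IL6ST in RM the square is at −1.86 while the interval of the circle includes 0.

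Scaling the libraries by their median ratio instead of to a fixed total multiplied the TPM values by factors that raised RM by 0.73 and IL-8 by 0.45 against LD and lowered HD by 0.44 on the log2 scale. With the pseudocount of 1, genes of low level moved by less. After this scaling SOCS3 in RM stood 2.56 above LD and BCL3 in RM passed 1 unit at 1.38, while TYK2 at −0.67 and STAT3 at −0.49 in RM and SOCS3 at −0.67 in IL-8 no longer passed it. The members past 1 unit were then 1 higher and 1 lower in IL-6, 2 and 2 in IL-8, 2 and 1 in RM, and 1 and 2 in HD. The shares of all genes past 1 unit under this scaling were not counted, so these counts cannot be set against the transcriptome. OSMR in RM changed sign, from −0.12 to 0.55, as did JAK1 in IL-8, from −0.12 to 0.31, and IL6ST and SOCS3 in HD changed sign as well, from 0.25 to −0.17 and from 0.20 to −0.18.

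The 4 low-density libraries form a layout of 2 with and 2 without each cytokine, which allows a test of each term across libraries. The additive edgeR quasi-likelihood fit had 1 residual degree of freedom, and 6 of the 10 genes, IL6ST, OSMR, JAK1, TYK2, STAT3 and SOCS3, had enough reads. For added IL-6 it called 0 of 8764 genes, or 0%, after Benjamini-Hochberg adjustment, while 271 genes (3.09%) had an unadjusted p under 0.05 and DESeq2 called 11. Of the 6 genes it called 0, and 0 had an unadjusted p under 0.05. The IL-6 term was 1.74 on the log2 scale for SOCS3 and −1.34 for TYK2, and the adjusted p from edgeR was 1 for both. In fits to 3 libraries, which keep the IL-6 term alone, SOCS3 was at 0.60 without RM, 1.73 without IL-8, 2.59 without LD and 2.75 without IL-6, and TYK2 was at −0.45 without IL-8, −1.20 without RM, −1.98 without IL-6 and −2.13 without LD. For added IL-8 the fit called 1 gene, or 0.0114%, which was none of the 6, with 488 (5.57%) at an unadjusted p under 0.05 and 33 by DESeq2. Any departure from the sum of the 2 cytokines' separate differences counts as spread in this fit.

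For several members the sign of a cytokine's difference turned with the other cytokine. IL-8 minus no IL-8 was −1.02 for SOCS3 without IL-6 and 1.64 with it, and for TYK2 it was 1.34 without and −1.15 with IL-6, on the log2(TPM + 1) scale. IL-6 minus no IL-6 was 1.36 for BCL3 without IL-8 and −1.42 with it, −0.99 and 1.66 for OSMR, −0.86 and 0.68 for STAT3, and 0.42 and −0.94 for IL6ST. The turn of IL6ST was by TPM only. Its reads per 1000000 outside RNA5-8S5 were higher with IL-6 in both pairs, 51.8 against 42.5 in LD, and 33.5 in RM against 25.9 with IL-8 alone. OSMR was lower with each cytokine alone and close to LD with both. BCL3 was above LD in IL-6, IL-8 and RM alike, with read ratios of 3.99, 8.81 and 3.06, and only the interval for IL-8 excluded 1. For STAT3 the IL-8 difference turned by reads but not by TPM: its reads per 1000000 outside RNA5-8S5 were 201 in LD and 50.9 with IL-8 alone, and 104 with IL-6 alone and 142 in RM, whereas its TPM was lower with IL-8 in both pairs. With 1 library in each cell of the layout these differences between differences could not be tested.

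**Figure D4:**
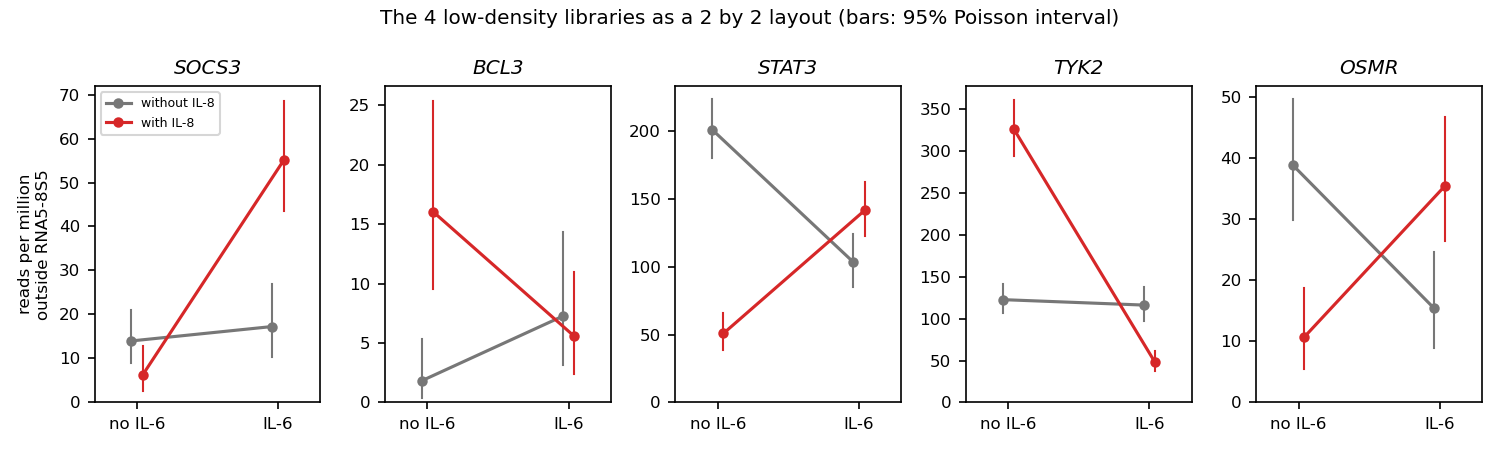
Reads per 1000000 outside RNA5-8S5 of SOCS3, BCL3, STAT3, TYK2 and OSMR in the 4 low-density libraries, without and with IL-6 on the horizontal axis, with 1 line without IL-8 and 1 with it and bars for the 95% exact Poisson interval. Each point is 1 library, and the lines cross in all 5 panels.

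The rest of the pathway was taken as 7 lists of 68 genes, of which 67 were in the tables and 63 reached 1 TPM in a library. Past 1 log2 unit against LD, the IL-6 library had 9 of the 63 higher and 5 lower, the IL-8 and RM libraries 2 and 13 each, and HD 33 and 16, to be read against the shares of all genes given above. Under median-ratio scaling the split was 9 and 5 with IL-6 alone and 6 and 6 with IL-8 alone. It was 5 and 10 in RM and 33 and 23 at high density. The excess of lower genes with IL-8 alone was thus absent under this scaling, while RM kept more lower than higher genes. The shares of all genes under this scaling were not counted. Without that scaling the median difference was 0.00 with IL-6 alone, −0.25 with IL-8 alone, −0.32 in RM and 1.61 in HD. Of the 22 other STAT3 target genes tested, 2 were higher and 2 lower with IL-6 alone (all genes: 9.84% and 7.47%). The counts were 0 and 6 with IL-8 alone (7.99% and 16.4%), 0 and 5 in RM (6.44% and 20.4%), and 9 and 7 at high density (61.9% and 17.9%). By the interval of the read ratio 7 of the 22 were higher and 5 lower with IL-6 alone (all genes: 11.4% and 9.42%). The counts were 1 and 8 with IL-8 alone (10.3% and 17.1%), 4 and 6 in RM (9.26% and 22.2%), and 4 and 11 at high density (42.7% and 19.9%). The genes in RM were named after their values were seen. Of the 4 higher, BIRC5, an inhibitor of apoptosis, was at 2.16 times the reads of LD (1.76 to 2.65). BCL2L1, which encodes BCL-XL, was at 1.70 times (1.496 to 1.941). CCND1, which encodes cyclin D1, was at 1.21 times (1.18 to 1.24), and TIMP1, a protease inhibitor, at 1.18 times (1.02 to 1.37). With IL-6 alone BCL2L1 was at 1.72 times and TIMP1 at 1.26 times, but CCND1 at 0.866 and BIRC5 at 0.857. The 6 lower in RM were PIM1 (0 reads against 14), PIM3 at 0.147 times, CEBPB at 0.215, HIF1A at 0.242, JUNB at 0.564 and MCL1 at 0.584.

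In IL-6 the target CEBPD, a C/EBP transcription factor, had 50 reads (43.8 TPM) against 1 read in each of LD, IL-8 and RM and 0 in HD, a read ratio to LD of 74.7 with an interval of 12.8 to 3010.0. FOS, a subunit of AP-1, had 13 reads in IL-6 and 0 in LD, 6.48-fold higher against a floor of 3 reads (lower end of the interval 4.555). STAT2, which carries interferon signals, had 87 reads against 34 (1.57 higher on the log2 scale), PIAS2, an inhibitor family member, 39 against 13 (2.73) and the adaptor GAB1 22 against 5 (1.42). The kinase gene PIM1, another STAT3 target, had 0 reads in IL-6 and in RM against 14 in LD, 3.12-fold and 4.07-fold lower with the floor. The upper ends of the intervals of its read ratio were 0.451 and 0.346.

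In IL-8 the gp130 ligand LIF was higher (106 reads against 64 in LD, a difference of 1.09 in log2(TPM + 1), as for each gene that follows), and the lower genes included MYC (3 reads against 35, −2.86), the ligand CNTF (19 against 146, −2.36), the phosphatase PTPN2 (5 against 29, −1.85) and the receptor IL27RA (19 against 89, −1.67). In RM STAT5A was higher (23 against 8, 1.19), and PIM3 (11 against 86, −2.59), the ligand CLCF1 (2 against 23, −2.49), IL27RA (17 against 89, −2.20) and STAT5B (17 against 101, −2.15) were lower. In IL-6 the lower genes beside PIM1 were PIAS3 (23 against 81, −1.24) and the sheddase ADAM10 (19 against 59, −1.08).

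In HD, STAT4 (26 reads against 1), JAK3 (41 against 6) and ICAM1 (21 against 2) were higher than LD by 5.77, 4.40 and 4.33 on the log2(TPM + 1) scale. SERPINA3 and CISH had 12 reads each against 0, 14.6-fold higher with the floor (lower end of the interval 10.2). JAK3 and STAT4 are best known from blood cells, whose markers had 71 reads in HD and 2 in LD. Genes of other tissues also had reads in HD and 0 in LD: GFAP 18, MYH7 7 and the epithelial CDH1 34, while ALB and KRT5 had 0 in both. The part of either group in these values was not tested. PIAS4 had 0 reads against 164 (14.9-fold lower with the floor) and PIM3 0 against 86 (7.83-fold lower with the floor). The upper ends of the intervals of their read ratios were 0.083 and 0.160. JUNB had 4 against 586 (40.0-fold lower), PIAS3 1 against 81, and HIF1A 7 against 237 (9.25-fold lower). The ligand gene IL6 had 3 reads in the IL-6 library, 1 in HD and 0 in the other 3, and IL8 had 0 reads in all 5. CXCR1 had 2 reads in HD and 0 elsewhere, and CXCR2 had 8 in HD, 4 in RM, 3 with IL-8 alone and 0 in the other 2, so neither receptor of IL-8 was read in LD.

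**Figure D5:**
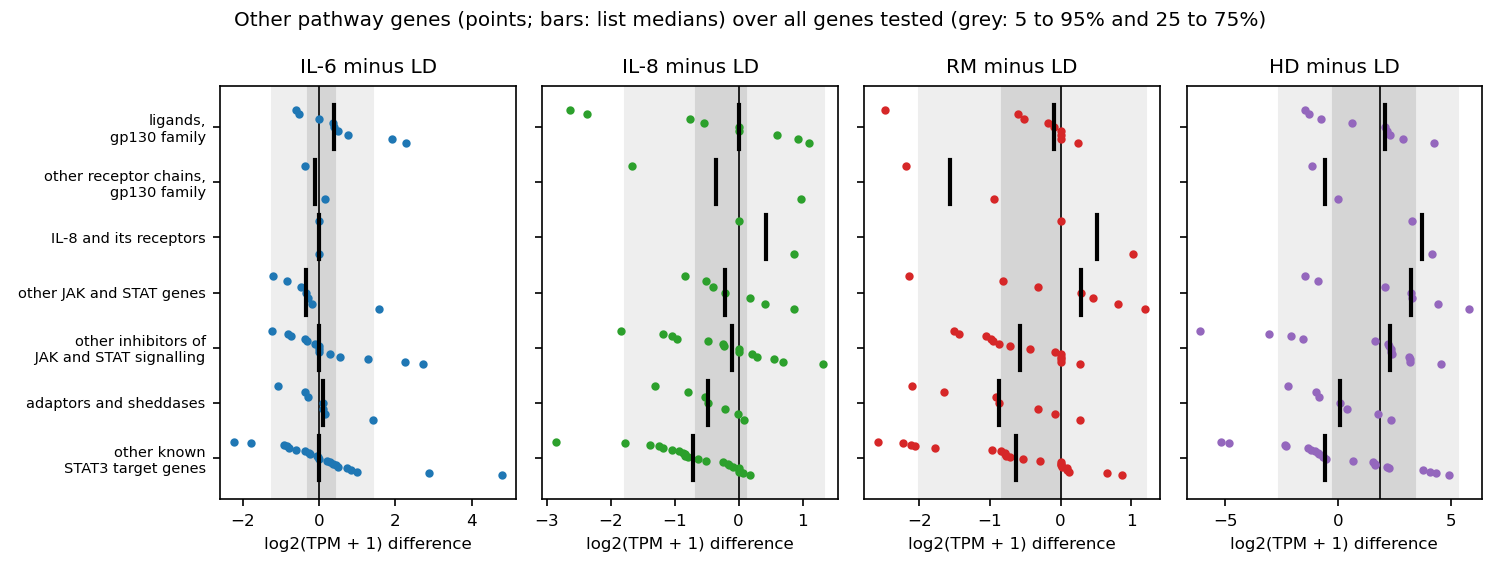
Difference of log2(TPM + 1) from LD for the 63 other pathway genes tested, by list (rows) and library (panels), with a point for each gene and a black bar for the median of each list, over grey bands for the middle 90% and 50% of all genes. The median of the STAT3 target genes is at −0.72 for IL-8 alone, −0.63 for RM and −0.61 for high density, where the median of all genes, the thin line, is at 0, 0 and 1.87. These medians are without median-ratio scaling, which raised IL-8 by 0.45 and RM by 0.73 against LD and lowered HD by 0.44. How far the list differs from all genes under that scaling was not tested. The HD median of all genes includes genes that, like JAK2, reached 1 TPM only in HD.

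The genes whose pattern over the 5 libraries was most like that of 4 members were sought among 9998 genes by the Euclidean distance of centred log2(TPM + 1), a description over 5 points. For SOCS3 they were OBSL1 (distance 0.35), DGCR14 (0.36) and H2AFJ (0.43), all highest in RM and lowest in IL-8 by TPM. OBSL1 had 624 reads in RM, 264 in LD, 183 with IL-6 alone, 83 with IL-8 alone and 32 in HD. For BCL3 they were MMP17 (0.31), DOHH (0.34) and LAMB2 (0.38), for STAT3 NIPSNAP1 (0.31), CMPK1 (0.38) and MAGEB2 (0.41), and for IL6ST XPNPEP1 (0.26), TMEM44 (0.37) and PLOD2 (0.39).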

How the data were processed

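Per the labels, RNA from HT1080 cells in collagen gels was primed on poly-A tails, the cDNA pool was amplified with phi29 polymerase, and Nextera XT libraries were read as single ends. The submitters' processing notes name CASAVA 1.4, Bowtie, Bowtie2 2.3.1, RSEM 1.2.25 and FastQC, and the builds GRCh37 and hg19. Annotation, settings and use of strand are not given in the sources used here. The authors deposited 1 table a library with whole-number read counts and TPM values per gene. The deposited read counts were used as they were, and the deposited TPM values were rescaled to sum to 1000000. A collagen gel without cells was not analysed here.

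Groups followed the sample titles, with 1 library a condition. The 10 members and the wider lists were chosen with earlier results of these data known. The 2 call rules were applied to the 21163 genes that reached 1 TPM in any library: a difference of at least 1 in log2(TPM + 1), with a pseudocount of 1 that understates changes of low genes, and a 95% exact conditional interval of the ratio of reads per 1000000 outside RNA5-8S5 that excludes 1. Reads of 2 libraries compare those libraries and not the conditions. A library at 0 reads was set to a floor of 3 reads, which is 1.82 to 2.73 reads per 1000000 outside RNA5-8S5 at low density and 6.67 in HD. A fold from this floor is not a lower bound. edgeR 4.0.16 (quasi-likelihood, TMM, genes with at least 10 reads in at least 2 of the 4 low-density libraries) fitted terms for IL-6 and IL-8, and DESeq2 1.42.0 was an alternative. Wider-list genes were named when past 1 log2 unit, with at least 10 reads in 1 of the 2 libraries and an interval excluding 1, at most 5 a direction. A gene that the rule also named is not reported here. SAA2 was not analysed here. RefSeq promoter sequences (GRCh38.p14) were matched by symbol for all 10 members, and no coordinate of the files was used. The motif spacings of 2 and 4 bases were added after the first windows had been searched. Python 3.11.15, scipy 1.17.1 and R 4.3.3 were used, and the procedures were tested on simulated data. Alternatives were other pseudocounts, scalings, read minimums and thresholds, and leaving out each library of the low-density fit.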

Additional observations from a re-analysis of the deposited data

Results flagged for a closer look

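For 3 members a cytokine's difference was at least 1 unit one way without the other cytokine and at least 1 unit the opposite way with it, with 1 library at each corner of the layout, so the difference between the differences was not tested. For TYK2, IL-8 minus no IL-8 was 1.34 on the log2(TPM + 1) scale without IL-6 and −1.15 with it. For SOCS3 the same contrast was −1.02 without IL-6 and 1.64 with it. For BCL3, IL-6 minus no IL-6 was 1.36 without IL-8 and −1.42 with it, on 3 to 18 reads a library. The read-ratio interval to LD included 1 for SOCS3 in IL-8 (0.162 to 1.08) and for BCL3 in IL-6 (0.957 to 23.3). Under median-ratio scaling SOCS3 in IL-8 was at −0.67 against LD, and TYK2 was at −0.67 in RM and −0.25 in IL-6. SOCS3 and TYK2 therefore did not meet the 1-unit rule under that scaling. The sign also turned, with less than 1 unit on at least 1 side, for other members, among them OSMR (IL-6 difference −0.99 and 1.66), STAT3 (−0.86 and 0.68) and IL6ST (0.42 and −0.94). For IL6ST it turned by TPM and not by reads.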

How the results depend on the processing

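No paired analysis was possible because each condition has 1 library and no replicate numbers are shared. No member that passed 1 log2 unit changed sign under another setting. Of the members tested, those past 1 unit numbered 5 in HD, 4 in RM, 5 with IL-8 alone and 1 with IL-6 alone. In IL-6 they became 3 with a pseudocount of 0.1, 0 with 5, 2 per 1000000 of all reads, 3 per 1000000 outside RNA5-8S5, 2 by median ratio, 0 with at least 10 reads in both libraries, 0 past 2 units and 2 by interval. In IL-8 they became 3 with 10 reads and 1 past 2 units. In RM they became 2 per 1000000 of all reads and 0 past 2 units. In HD they became 3 with a pseudocount of 5, 3 by median ratio, 1 with 10 reads and 3 past 2 units. Of the wider lists, 14 genes in IL-6 became 4, 9, 4 and 6 with a pseudocount of 5, all reads, 10 reads and 2 units. The 15 in IL-8 became 26 and 6 with pseudocounts of 0.1 and 5, 9 with 10 reads and 3 past 2 units. The 15 in RM became 24, 9, 9 and 8 in that order, and the 49 in HD became 13 with 10 reads. The cause was not tested. Shares of all genes were given above for the main rule, for at least 10 reads in both libraries and for the interval. They were not counted for the other settings, so those counts cannot be set against the transcriptome. In the low-density fit DESeq2 called 11 genes for IL-6 and 33 for IL-8. The IL-8 term called 0 with size factors, 0 without RNA5-8S5, 4 with no filter and 0 as the term alone. Leaving out a library, which also dropped the other cytokine's term because 3 libraries and both terms leave no residual degree of freedom, gave 0 to 102 genes for IL-6 (102 without the IL-6 library, 19 without RM) and 1 to 427 for IL-8 (427 without the IL-8 library, 40 without RM), and 0 members in every case, so these values reflect both changes. The term alone on all 4 libraries called 0 genes for either cytokine. Each lone library is then assumed to vary like the others. LIFR, JAK2 and BCL3 had 1 to 3 reads in LD and 1 or 2 in HD, which held 449661 reads outside RNA5-8S5. Decreases and small increases of these genes could therefore not be shown. A large increase could be seen at this depth, as for CXCR2 with 8 reads against 0 (lower end of the interval 6.25).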

Other observations

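The balance between partners of the pathway, taken as ratios of TPM within a library, differed between libraries. The IL6ST to IL6R ratio was 15.7 with IL-6 alone, 12.6 in LD, 4.17 with IL-8 alone, 2.77 in RM and 0.168 at high density, so the chain that carries the signal exceeded the chain that binds IL-6 at low density and not in HD. The STAT3 to SOCS3 ratio was 11.9 in LD, 7.58 with IL-8 alone, 5.39 with IL-6 alone, 1.24 in RM and 0.781 at high density. The HD ratios rest on 6 reads of IL6ST, 7 of STAT3 and 3 of SOCS3, and the RM value of IL6ST carries the reads-per-TPM factor of 3.63 given above. At low density the IL6ST to IL6R ratios rest on 5 to 9 reads of IL6R. RM had 48 reads of IL6ST and 8 of IL6R, and IL-8 alone had 29 and 9, so by reads their order was reversed. The part of blood-cell or other-tissue genes in the IL6R level of HD was not tested.

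The kinases as a group summed to 121 TPM in IL-8, against 61.3 in LD, 52.5 with IL-6 alone, 37.1 in RM and 25.2 at high density, and TYK2 made up 99.7 of the 121. The other STAT with many reads, STAT6, had 724 reads in RM (138 TPM), 419 in LD (78.3 TPM), 228 with IL-6 alone (61.3 TPM), 218 with IL-8 alone (54.8 TPM) and 25 at high density (27.2 TPM). STAT6 was chosen after its values were seen.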
